A study of Mus musculus with 4 samples.

Results

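The mouse genes named Zfp900 to Zfp999 are a block of mostly rodent zinc finger genes of the KRAB family. They were taken here by symbol, which matched 63 of the 41543 gene symbols counted in E14TG2a cells. Of the 63 genes, 52 had a mean of at least 0.5 CPM (counts scaled to a common library size) over the 4 libraries, and all 52 passed the low-count filter that left 16112 genes for testing. The 2 libraries labelled KAT6A KO came from E14TG2a cells in which KAT6A had been knocked out by CRISPR/Cas9 editing, and the 2 Control libraries came from cells of the same line labelled with a control genotype. E14TG2a is a feeder-independent mouse embryonic stem (ES) cell line of strain 129 background, grown here with serum and the cytokine LIF on gelatin. KAT6A is a histone acetyltransferase of the MYST family. Nothing in the labels ties the replicates to separate cultures or edited clones, so p-values reflect just the spread of the libraries at hand, which may be technical.

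A KRAB zinc finger protein binds DNA through a row of C2H2 zinc fingers and carries a KRAB domain that recruits the corepressor TRIM28. TRIM28 in turn brings the histone methyltransferase SETDB1 and the heterochromatin proteins of the HP1 family, and in mouse ES cells this machinery is known for silencing retrotransposons. The genes lie in tandem clusters that grew by duplication, so neighbouring members often share long stretches of sequence. Zfp932 is one of the few members with a reported function, the repression of endogenous retroviruses in mouse ES cells. Zfp982 has been reported to regulate stem cell genes in the same cells. Coding sequences from GENCODE M21 held a KRAB pattern in 60 of the 63 genes, and in 50 of the 52 genes at 0.5 CPM or more (Zfp956 and Zfp974 lacked it). The 52 genes encoded between 0 and 21 C2H2 fingers by pattern, with a median of 11.

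The libraries held 30185640 and 27494041 counts in those labelled KAT6A KO, and 35616899 and 37354623 counts in Control replicates 1 and 2. Kat6a RNA went against the label in 1 library: it was at 242 and 86.4 CPM in the libraries labelled KAT6A KO, against 145 and 143 CPM in the Control libraries. The libraries labelled KAT6A KO are written KO-labelled replicates 1 and 2 where they are told apart. The counts cover the whole gene and do not show whether protein was made. Across all tested genes 928 were called higher (5.76%) and 1381 lower (8.57%) in the libraries labelled KAT6A KO than in the Control libraries, by edgeR's quasi-likelihood test at a Benjamini-Hochberg adjusted p of 0.05 over all 16112 genes. These cells are a bulk sample, in which fewer cells that express a gene and less of its RNA per cell cannot be told apart.

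The Zfp900 to Zfp999 genes were mostly at lower RNA levels in the libraries labelled KAT6A KO, and the largest falls lay together on chromosome 4. By edgeR's test 8 of the 52 genes were lower (15.4%) and 1 was higher (1.92%), set against 8.57% and 5.76% of all tested genes. The 8 were Zfp979, Zfp990, Zfp981, Zfp985 and Zfp980 on chromosome 4, Zfp948 and Zfp945 on chromosome 17, and Zfp953 on chromosome 13. The single gene that rose was Zfp961 on chromosome 8. The median log2 fold change of the 52 genes (KAT6A KO over Control) was -0.34, with quartiles of -0.62 and -0.06 and a range of -1.44 to 0.55, while that of all tested genes was 0.01. The members have low transcript GC content, and with an offset for GC content the median was -0.02, with 4 of the 8 falls, all on chromosome 4, still called (7.69% of the members, and 8.71% of all tested genes). An unadjusted p under 0.05 in edgeR's test was found for 16 of the 52, and for 5455 of all 16112 tested genes, a similar share. A value below 0 was found for 43 of the 52 genes (82.7%) and for 49.6% of all tested genes. The 281 other numbered Zfp genes at the same level had a median of 0.00, with 14 called higher and 13 lower (4.98% and 4.63%). The authors' deposited table called the same 8 members lower and 1 higher, against 10.1% and 6.94% of its 14690 genes with an adjusted p. DESeq2 run here on the same counts called 9 lower and 1 higher, against 9.43% and 7.03% of all tested genes.

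**Figure D1:**
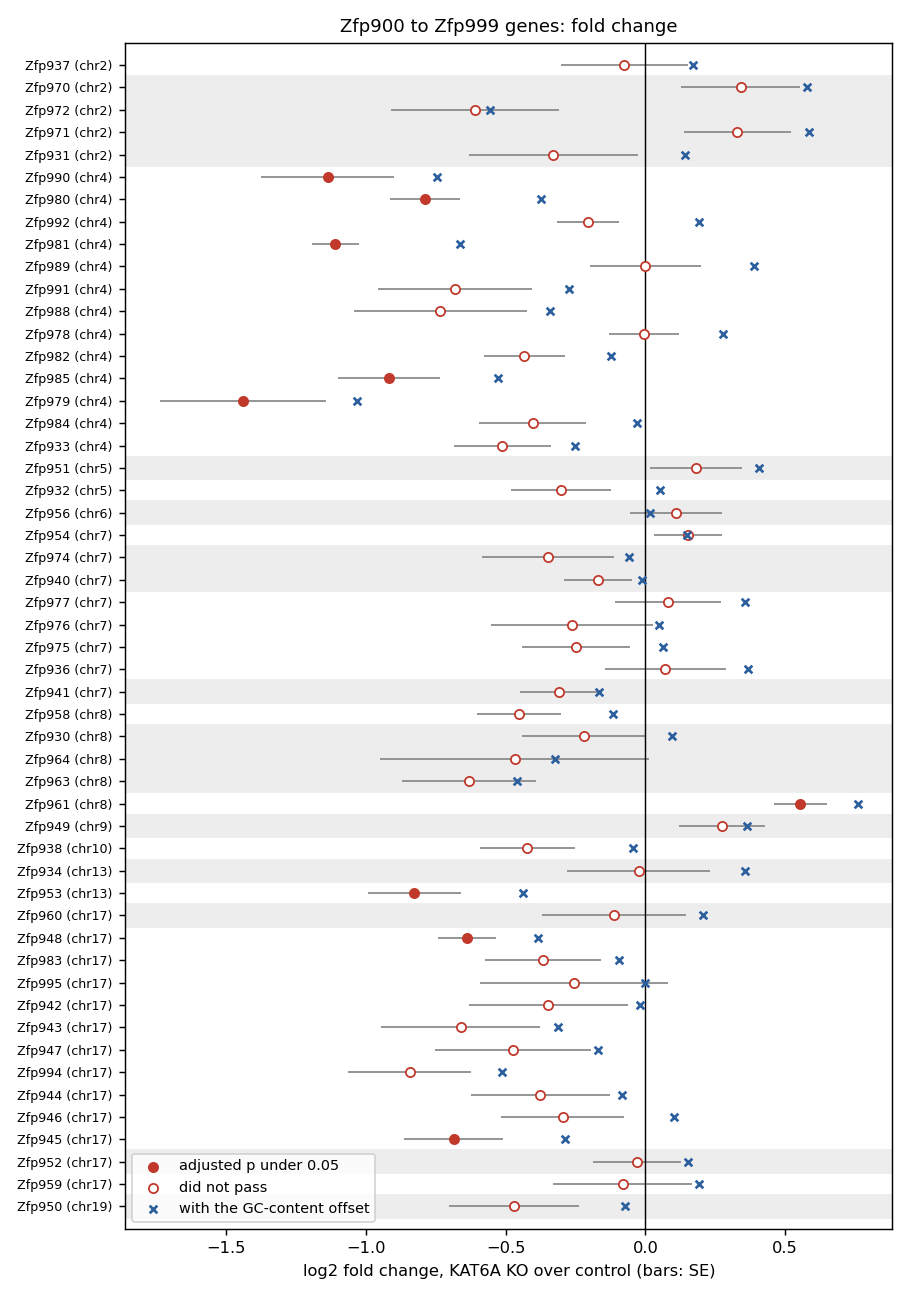
Log2 fold change (x axis, KAT6A KO over Control) of the 52 Zfp900 to Zfp999 genes at 0.5 CPM or more, in order of chromosome and position (y axis). Circles are edgeR estimates with their SE, filled where the adjusted p was under 0.05, and crosses are the same genes fitted with a GC-content offset; grey and white bands mark successive genome clusters. The 13 chromosome 4 genes all lie at or left of 0, and the crosses lie right of the circles for nearly all genes.

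Per kilobase of exon, the members spanned 0.0775 to 42.4 CPM per kb with a median of 3.0, next to a median of 4.04 for tested genes. This scale allows for exon length but not for sequence shared with other genes, which can lower a count. Zfp990 was at the top with a mean of 42.4 CPM per kb over the 4 libraries, followed by Zfp979 (38.2), Zfp985 (29.6), Zfp982 (21.4), Zfp981 (21) and Zfp961 (18.4). All of these but Zfp961 lie in the chromosome 4 cluster. In the libraries labelled KAT6A KO this order was different: Zfp990 (26.5 CPM per kb) was followed by Zfp961 (21.9), Zfp979 (20.6) and Zfp985 (20.5), whereas the Control libraries had Zfp990 at 58.2, Zfp979 at 55.9, Zfp985 at 38.7 and Zfp961 at 14.9 CPM per kb. Neighbours in these orders were not tested against each other, and the KO-labelled replicates of Zfp990 and Zfp979 differed from each other by more than these gaps.

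**Figure D2:**
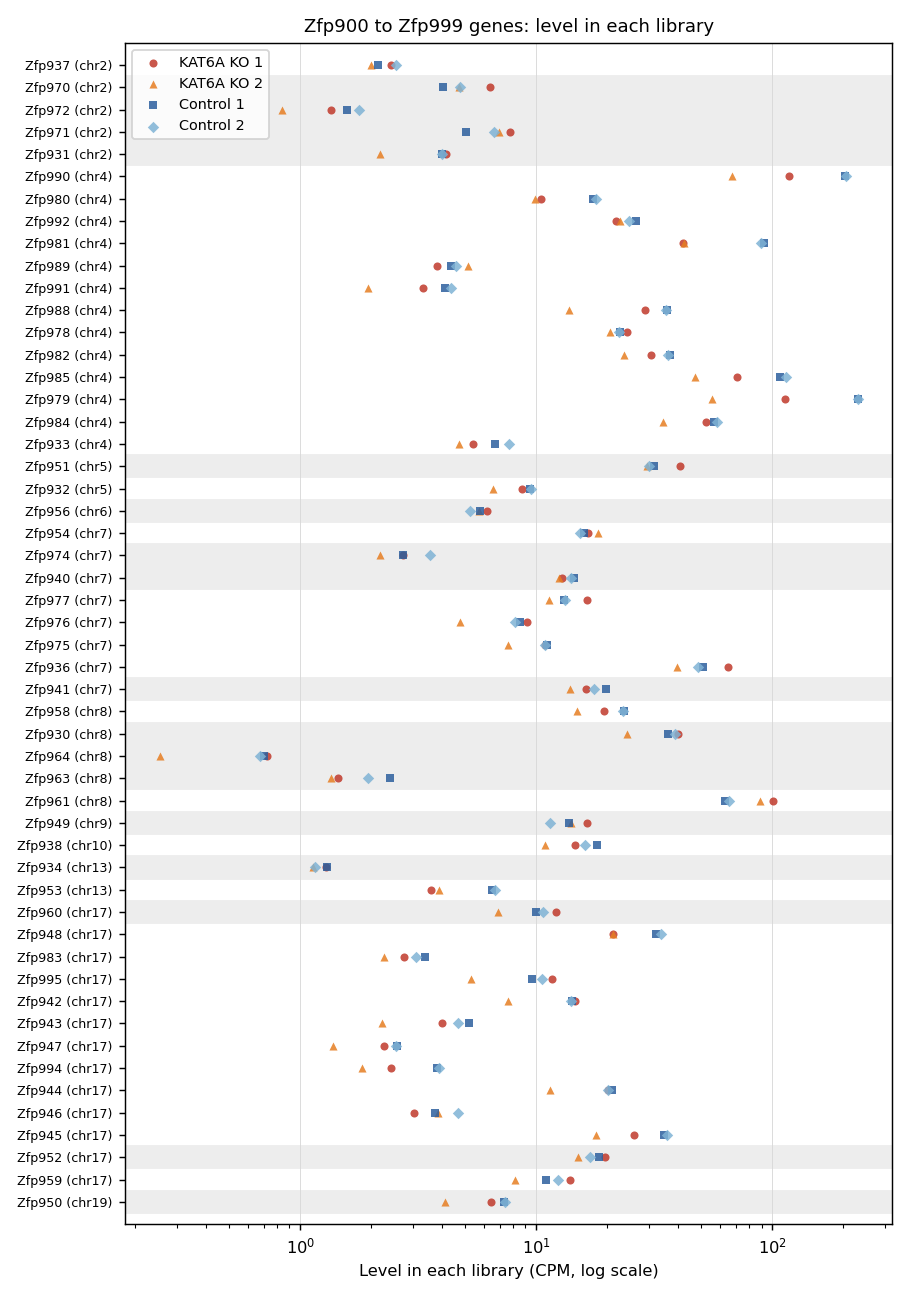
Levels (CPM, log axis) of the Zfp900 to Zfp999 genes in each library, with the libraries labelled KAT6A KO and the Control libraries marked as separate points. The 2 Control points almost coincide for the abundant genes, and KO-labelled replicate 2 is below KO-labelled replicate 1 for most genes.

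The chromosome 4 cluster (GRCm38 chr4:145510759-147848366, 2.34 Mb) held 13 of the 52 genes, and 16 of the 63. Of the 13, 5 fell (38.5%) and none rose, where 8.57% of all tested genes were called lower and 5.76% higher. In the lowest quintile of tested genes by transcript GC content 14.3% were called lower. With the GC-content offset 4 of the 13 were called lower (30.8%, and 8.71% of all tested genes). All 13 had a value at or below 0, with a median log2 fold change of -0.68. For 11 of the 13 both libraries labelled KAT6A KO lay below both Control libraries; the exceptions were Zfp978 and Zfp989, whose groups overlapped. The counts of the 13 genes added up to 525 and 348 CPM in KO-labelled replicates 1 and 2, against 844 and 848 CPM in Control replicates 1 and 2. Non-overlap in this direction was seen for 28 of the 52 members (53.8%) and for 32.8% of all tested genes. In the other direction it was seen for Zfp949, Zfp954, Zfp961 and Zfp971, and for 31.5% of all tested genes.

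The 300 bases around the transcription start (250 before it and 50 after it) are printed for the 4 chromosome 4 genes that fell and had an entry, to show how alike their starts are, and, for contrast, for Zfp948 on chromosome 17, which fell, and Zfp961, which rose. They are RefSeq sequences on GRCm38.p6, the C57BL/6J reference and not the E14TG2a genome, written 5′ to 3′ on the strand of the gene with each CG in capitals. No promoter entry was matched for Zfp990. The first 4 lie in the chromosome 4 cluster: Zfp979 at chr4:147642459-147642758 (minus strand), Zfp981 at chr4:146514670-146514969 (plus), Zfp985 at chr4:147553027-147553326 (plus) and Zfp980 at chr4:145670447-145670746 (plus). The RefSeq start of Zfp981 lies inside its GENCODE gene span. The last 2 are Zfp948 at chr17:21566728-21567027 (plus) and Zfp961 at chr8:71950816-71951115 (plus).
Zfp979: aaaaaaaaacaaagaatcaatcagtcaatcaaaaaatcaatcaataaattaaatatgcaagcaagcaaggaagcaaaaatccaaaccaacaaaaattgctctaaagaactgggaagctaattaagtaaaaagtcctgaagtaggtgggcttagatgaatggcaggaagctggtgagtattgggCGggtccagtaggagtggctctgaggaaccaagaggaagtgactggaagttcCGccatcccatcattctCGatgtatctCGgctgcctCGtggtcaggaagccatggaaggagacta
Zfp981: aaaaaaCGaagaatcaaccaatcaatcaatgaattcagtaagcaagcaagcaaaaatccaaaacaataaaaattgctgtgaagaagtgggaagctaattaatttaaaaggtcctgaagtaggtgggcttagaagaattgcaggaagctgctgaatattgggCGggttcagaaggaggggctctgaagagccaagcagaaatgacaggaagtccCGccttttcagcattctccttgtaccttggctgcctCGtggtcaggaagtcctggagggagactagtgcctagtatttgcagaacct
Zfp985: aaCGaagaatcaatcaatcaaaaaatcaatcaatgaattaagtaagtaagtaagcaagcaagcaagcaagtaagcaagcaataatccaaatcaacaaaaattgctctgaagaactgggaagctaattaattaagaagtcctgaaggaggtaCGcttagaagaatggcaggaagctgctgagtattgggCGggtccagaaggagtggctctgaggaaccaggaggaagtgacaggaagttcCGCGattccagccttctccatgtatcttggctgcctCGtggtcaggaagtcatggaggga
Zfp980: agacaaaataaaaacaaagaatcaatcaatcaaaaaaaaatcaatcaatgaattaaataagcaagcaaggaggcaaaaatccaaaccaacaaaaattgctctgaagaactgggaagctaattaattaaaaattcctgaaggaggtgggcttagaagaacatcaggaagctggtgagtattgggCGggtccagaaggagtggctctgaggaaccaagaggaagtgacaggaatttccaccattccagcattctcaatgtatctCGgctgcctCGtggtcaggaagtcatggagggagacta
Zfp948: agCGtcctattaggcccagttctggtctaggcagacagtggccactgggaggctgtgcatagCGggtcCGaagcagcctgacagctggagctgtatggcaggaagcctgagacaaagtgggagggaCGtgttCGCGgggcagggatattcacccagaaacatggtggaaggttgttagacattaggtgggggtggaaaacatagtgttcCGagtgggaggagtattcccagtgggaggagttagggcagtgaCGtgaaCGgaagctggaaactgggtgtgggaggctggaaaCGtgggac
Zfp961: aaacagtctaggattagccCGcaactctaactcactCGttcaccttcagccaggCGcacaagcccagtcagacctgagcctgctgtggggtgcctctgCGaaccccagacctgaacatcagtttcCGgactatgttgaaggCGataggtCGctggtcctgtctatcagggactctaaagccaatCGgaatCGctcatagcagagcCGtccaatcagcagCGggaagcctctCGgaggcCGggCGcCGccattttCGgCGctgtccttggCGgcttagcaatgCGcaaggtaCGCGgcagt

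The 4 chromosome 4 sequences were 72% to 89.8% identical to each other over 6 pairs, and 46.4% to 52.0% identical to those of Zfp948 and Zfp961 over 8 pairs. Those of Zfp984 and Zfp988, which lie in the same cluster and did not pass edgeR's test, were 62.2% to 78.2% identical to the 4. The longest run that the 4 shared was ggctgcctCGtggtcaggaag, 21 bases. It stood, on either strand, in 6 of the 27025 RefSeq promoters of this length: those 4 and the promoters of Rex2 and Zfp600, both located between the chromosome 4 members. The run was picked because these 4 share it, so its rarity is a description. The letters GGGCGG, the core of a GC box, were found on either strand in 7 of the 10 chromosome 4 promoters (the 10 include Zfp987 and Zfp993, which were below 0.5 CPM), in 18 of the 44 member promoters and in 62.4% of the 11975 promoters of tested genes. A match of letters does not show that a factor binds there.

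CG dinucleotides were few in these promoters. The 44 members with a RefSeq promoter had a median of 8.5 CGs per 300 bases (range 3 to 24), against 20 in tested genes and 16 in 230 other numbered Zfp genes. Fewer than 10 were found in 27 of the 44, and in 21.4% of the promoters of tested genes. Of the 7 members that fell and had a promoter entry, 6 had fewer than 10. Zfp948, the exception, had 10, and Zfp961, which rose, had 21. Across the 44 members the Spearman rho of the CG count with the fold change was 0.09 ( a description over genes that share sequence and libraries).

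Zfp979 (chr4:147611937-147642513, minus strand), which encodes 3 C2H2 fingers by pattern, showed the largest fall among the members. It was at 113 and 55.6 CPM in KO-labelled replicates 1 and 2, against 230 and 230 CPM in Control replicates 1 and 2. Both libraries labelled KAT6A KO were low, the second clearly lower than the first, while the Control libraries coincided. Its mean was 84.5 ± 40.9 CPM in the libraries labelled KAT6A KO and 230 ± 0.0029 CPM in Control (SD, n = 2 each). The log2 fold change was -1.44 ± 0.30 (SE; edgeR adjusted p = 0.0288), or 2.72-fold lower. The authors' deposited DESeq2 table gave -0.83 (adjusted p = 0.0254), while DESeq2 run here on the same counts gave -1.44 (adjusted p = 0.0245). The deposited fold change may thus be on another scale, and the reason for its smaller size was not tested. The size depended on the library: without KO-labelled replicate 1 it was -2.05, and without KO-labelled replicate 2 it was -1.02. The call ended when genes with few counts were kept (adjusted p = 0.269).

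Zfp990 (chr4:145510759-145539188, plus strand, 13 fingers) is the first member of the cluster by position. It was at 118 and 67.3 CPM in the libraries labelled KAT6A KO, against 203 and 204 CPM in Control. All 4 values separated by group, again with KO-labelled replicate 2 the lower. The means were 92.6 ± 35.8 CPM in the libraries labelled KAT6A KO and 204 ± 1.02 CPM in Control (SD, n = 2 each). The log2 fold change was -1.14 ± 0.24 (SE; edgeR adjusted p = 0.0298), 2.20-fold lower. It was -1.60 without KO-labelled replicate 1 and -0.79 without KO-labelled replicate 2, and the call ended when genes with few counts were kept (adjusted p = 0.171).

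Zfp981 (chr4:146502027-146539395, plus strand, 7 fingers) was the member with the smallest adjusted p. It was at 41.8 and 42.4 CPM in the libraries labelled KAT6A KO, against 92.1 and 89.5 CPM in Control. Within each group the 2 libraries were nearly equal. The log2 fold change was -1.11 ± 0.08 (SE; edgeR adjusted p = 0.0050), 2.16-fold lower, and -1.05 in the authors' deposited table (adjusted p = 5.6e-14). Zfp985 (chr4:147553277-147585198, plus strand, 10 fingers) was at 70.5 and 46.9 CPM in the libraries labelled KAT6A KO, against 108 and 114 CPM in Control. The groups did not overlap, and KO-labelled replicate 2 was the lowest. Its log2 fold change was -0.92 ± 0.18 (SE; edgeR adjusted p = 0.0268), 1.89-fold lower, with -1.24 and -0.66 without KO-labelled replicates 1 and 2 in turn. Zfp981 and Zfp985 passed the test under all 15 alternatives to the fit.

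Zfp980 (chr4:145670685-145704441, plus strand, 13 fingers) was less abundant, at 10.5 and 9.90 CPM in the libraries labelled KAT6A KO against 17.4 and 17.9 CPM in Control. The libraries of each group lay close together. The log2 fold change was -0.79 ± 0.12 (SE; edgeR adjusted p = 0.0154), 1.73-fold lower. This call ended without Control replicate 1 or 2 (adjusted p = 0.0713 and 0.102) and with the GC-content offset described below (0.119). Of its transcribed 50-base windows 71.3% occur in other genes too, most often in Rex2, so reads may have been assigned among relatives or discarded. The share was 24.6% for Zfp979, 25.95% for Zfp990, 39.9% for Zfp981 and 16.2% for Zfp985.

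The other 8 chromosome 4 members did not pass edgeR's test. Of these, Zfp988 was called lower by DESeq2 run here (adjusted p = 0.0472) but not by limma-voom (adjusted p = 0.101). Zfp984, among the 8 most abundant members, was at 52.5 and 34.3 CPM in the libraries labelled KAT6A KO against 56.9 and 58.1 CPM in Control, with a log2 fold change of -0.40 ± 0.19 (SE; edgeR adjusted p = 0.189). Zfp988 had a log2 fold change of -0.73, Zfp991 of -0.68, Zfp933 of -0.51 and Zfp982 of -0.43. In these 4 too both KAT6A KO values lay below both Control values. Zfp992 stood at -0.21, and Zfp978 and Zfp989 at -0.01 and -0.00. Zfp978 shares more 50-base windows with Zfp979 than any other gene does (16.5% of those of Zfp979). Its groups overlapped, at 24.2 and 20.4 CPM in the libraries labelled KAT6A KO against 22.5 and 22.3 CPM in Control. The share of windows found in other genes was 75.85% for Zfp978, 71.06% for Zfp989, 86.7% for Zfp991 and 68.14% for Zfp988. It was 54.56% for Zfp984, 42.98% for Zfp992, 11.89% for Zfp982 and 1.07% for Zfp933, so several of these counts are uncertain.

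**Figure D3:**
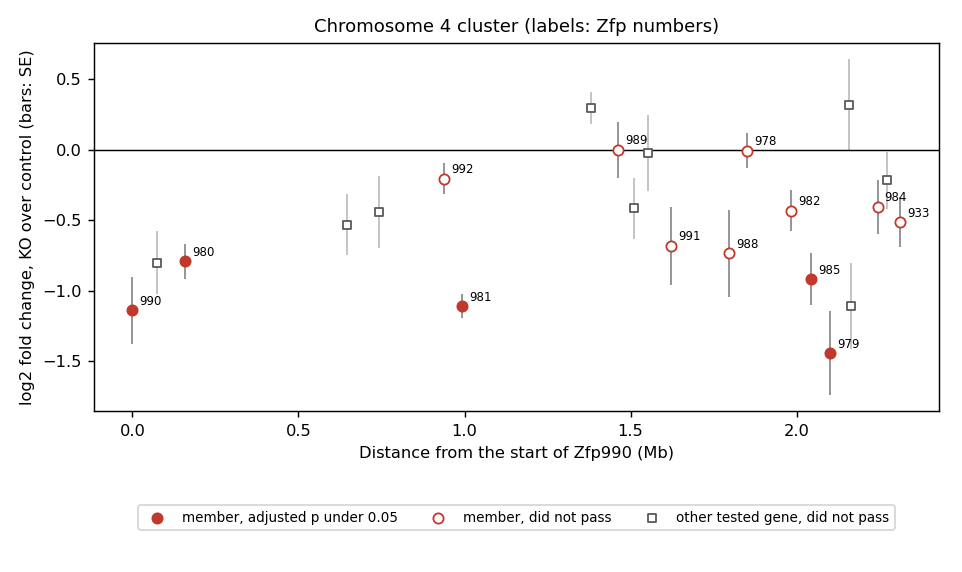
Log2 fold change (y axis, KAT6A KO over Control, bars SE) of tested genes against distance in Mb from the start of the chromosome 4 cluster (x axis), with the 13 Zfp900 to Zfp999 genes and the 9 other tested genes marked separately. The members that fell are spread along the cluster, with members that did not pass between them.

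Between the first and last member on chromosome 4 lay 9 other tested genes, none of which was called by edgeR's test (0 of 9, with 4 at an unadjusted p under 0.05, 1 called by DESeq2 and 2 by limma-voom). Their median log2 fold change was -0.42. Zfp534, a zinc finger gene of the same cluster, had -1.11 (edgeR adjusted p = 0.059), Gm13212 had -0.80 (0.058), Zfp600 had -0.53, Rex2 had -0.42 and Gm21411 had 0.30. On the rest of chromosome 4 the median of 975 tested genes was 0.07, with 46 called lower (4.72%). Both medians within the cluster, of members and of the other genes, were thus below that of the rest of the chromosome.

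On chromosome 17 a cluster of 10 members (chr17:21567008-22867134) had 2 genes that fell and none that rose. Of all tested genes 8.57% were called lower and 5.76% higher. The cluster's median log2 fold change was -0.42, with all 10 below 0, as were 49.6% of all tested genes. With the GC-content offset the median was -0.13 and none of the 10 was called. Against the Control mean, the median log2 ratio was -0.27 in KO-labelled replicate 1 and -0.89 in KO-labelled replicate 2. Zfp948 (chr17:21567008-21588699, plus strand, 15 fingers) was at 21.1 and 21.2 CPM in the libraries labelled KAT6A KO, against 32.1 and 33.7 CPM in Control. The libraries of each group were nearly equal and the groups did not overlap. Its log2 fold change was -0.64 ± 0.10 (SE; edgeR adjusted p = 0.0165), 1.56-fold lower, and only 0.12% of its 50-base windows occur in other genes. Without Control replicate 1 or 2 the adjusted p was 0.0869 and 0.158, and with the GC-content offset 0.0723.

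Zfp945 (chr17:22846697-22867134, minus strand, 18 fingers) was at 25.9 and 17.9 CPM in the libraries labelled KAT6A KO, against 34.7 and 35.8 CPM in Control. It separated by group, with a log2 fold change of -0.69 ± 0.18 (SE; edgeR adjusted p = 0.0498), 1.61-fold lower. Being at the threshold, its call ended with RLE, upper quartile or library-size scaling (adjusted p = 0.0505 to 0.0590), with a minimum of 1 CPM (0.0581) and without Control replicate 1 or 2 (0.0608 and 0.0960). With the GC-content offset it was at -0.29 (0.0971). The value was -0.98 without KO-labelled replicate 1 and -0.45 without KO-labelled replicate 2. Zfp994, with -0.84 and an adjusted p of 0.0511, was the nearest uncalled member of this cluster. It was at 2.43 and 1.82 CPM in the libraries labelled KAT6A KO against 3.80 and 3.86 CPM in Control. The other 7 members of the cluster had values between -0.66 (Zfp943) and -0.25 (Zfp995).

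Smaller clusters lay on chromosomes 2, 7 and 8, and none of their 11 genes passed edgeR's test, DESeq2 or limma-voom, with 1, on chromosome 8, at an unadjusted p under 0.05. The 4 members at 0.5 CPM or more on chromosome 2 had a median log2 fold change of -0.00, and they included the 2 highest values after that of Zfp961. Zfp970 was at 6.37 and 4.73 CPM in the libraries labelled KAT6A KO against 4.02 and 4.75 CPM in Control, with 0.34 ± 0.21 (SE; edgeR adjusted p = 0.303) and overlapping groups. Zfp971 was at 7.72 and 6.95 CPM in the libraries labelled KAT6A KO against 5.04 and 6.64 CPM in Control, with 0.33 ± 0.19 (SE; edgeR adjusted p = 0.274) and no overlap. Zfp972 and Zfp931, from the same cluster, had -0.61 and -0.33. The 4 genes on chromosome 7 had a median of -0.09. Among them Zfp936 was abundant, at 65.0 and 39.5 CPM in the libraries labelled KAT6A KO against 51.0 and 48.5 CPM in Control, so that the KAT6A KO values lay on both sides of the Control values (0.07 ± 0.22, SE; edgeR adjusted p = 0.842). The 3 genes on chromosome 8 had a median of -0.47. Zfp930, the abundant one, was at 39.9 and 24.2 CPM in the libraries labelled KAT6A KO against 36.1 and 38.6 CPM in Control (-0.22 ± 0.22, SE; edgeR adjusted p = 0.523), again with KO-labelled replicates on both sides of Control.

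The remaining 18 members lay alone or in pairs. Of these 1 rose and 1 fell (5.56% each), and their median log2 fold change was -0.10. Zfp961 (chr8:71951038-71993792, plus strand, 11 fingers) was at 101 and 89.1 CPM in the libraries labelled KAT6A KO, against 63.3 and 65.7 CPM in Control. All KAT6A KO values were above all Control values. The means were 94.8 ± 8.10 CPM in the libraries labelled KAT6A KO and 64.5 ± 1.72 CPM in Control (SD, n = 2 each), and the log2 fold change was 0.55 ± 0.10 (SE; edgeR adjusted p = 0.0185), 1.47-fold higher. The authors' deposited table gave 0.53 (adjusted p = 0.00077). Without Control replicate 1 or 2 the adjusted p was 0.132 and 0.0744. No 50-base window of Zfp961 occurs in another gene, but an exon of it overlaps the antisense gene Cyp4f18, and no source used here gives the strand setting of the counting.

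Zfp953 (chr13:67339306-67360605, minus strand, 8 fingers) was at 3.58 and 3.86 CPM in the libraries labelled KAT6A KO, against 6.5 and 6.70 CPM in Control. The groups were well apart, with a log2 fold change of -0.83 ± 0.17 (SE; edgeR adjusted p = 0.0273), 1.77-fold lower. The call ended without Control replicate 1 or 2 (adjusted p = 0.170 and 0.209) and with the GC-content offset (0.181), and exons of the predicted genes Gm28041 and Gm28044 overlap it on the same strand, which makes its counts uncertain. Zfp949 on chromosome 9 was at 16.3 and 14.0 CPM in the libraries labelled KAT6A KO against 13.7 and 11.4 CPM in Control, without overlap, but did not pass the test (0.27 ± 0.15, SE; edgeR adjusted p = 0.258). Zfp932, the repressor of endogenous retroviruses, was at 8.74 and 6.55 CPM in the libraries labelled KAT6A KO against 9.40 and 9.48 CPM in Control, with -0.30 and an adjusted p of 0.282 in edgeR's test. It is given here for its known function and not by the rule for named genes.

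The 2 libraries labelled KAT6A KO did not show the fall to the same extent. Against the Control mean, the median log2 ratio of the 52 genes was -0.16 in KO-labelled replicate 1 and -0.63 in KO-labelled replicate 2. KO-labelled replicate 2 was the lower of the 2 for 45 of the 52 genes (86.5%), compared with 50.4% of all tested genes. The summed level of the members was 1109 and 785 CPM in KO-labelled replicates 1 and 2, against 1387 and 1390 CPM in Control. In the chromosome 4 cluster both libraries were low, with medians of -0.35 and -0.83. Outside it the median was 0.05 in KO-labelled replicate 1 and -0.53 in KO-labelled replicate 2. Both KO-labelled libraries lay below both Control libraries for 17 of the 39 genes outside it (43.6%), Zfp948 and Zfp953 among them. The share was 32.8% for all tested genes. KO-labelled replicate 2 is the library with the lower Kat6a RNA; whether the levels of the members are linked to it was not tested.

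**Figure D4:**
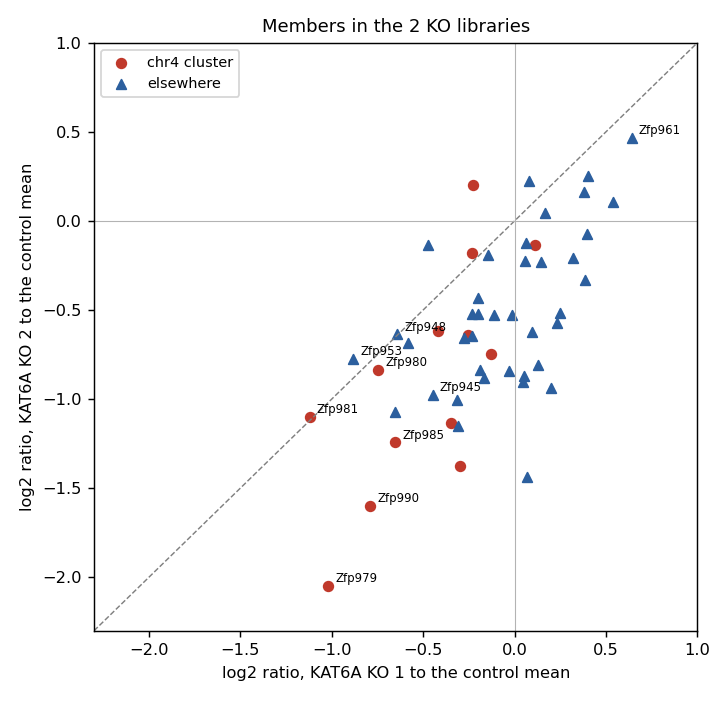
Log2 ratio to the Control mean in KO-labelled replicate 1 and in KO-labelled replicate 2 for each of the 52 genes, with the chromosome 4 cluster members marked. Most genes lie below the line of equal ratios, and the called chromosome 4 genes are low in both libraries.

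The number of calls moved with each library left out. Without KO-labelled replicate 1, 35 members were lower and 1 higher, against a background of 26.2% lower and 23.9% higher. Without KO-labelled replicate 2, 16 were lower and 7 higher (background 22.9% and 20.9%). Without Control replicate 1, 4 were lower and 0 higher (background 4.09% and 1.55%), and without Control replicate 2, 5 were lower and 0 higher (background 3.94% and 1.69%). The 9 called genes kept their direction in all 4 cases. Their groups did not overlap, so leaving out 1 library could hardly change it.

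Transcript GC content was low in the members, with a median of 38.5% against 49.9% in tested genes, and fold changes followed GC content across the whole data set. Of the 52 members 47 lay in the lowest quintile of tested genes by GC content (28.8% to 44.0%). In that quintile 3178 genes had a median log2 fold change of -0.22, with 14.3% called lower and 1.32% higher. KO-labelled replicate 2 was below KO-labelled replicate 1 in 76.1% of them. The share of members called lower (15.4%) was thus close to that of low-GC genes in general. The members' median of -0.34 was below theirs, but so was the members' median GC content (38.5%, against 41.3% in the quintile). The fold changes compared here are therefore not matched for GC content. In the quintile with the highest GC content the median was 0.23. Over the 52 members the fold change rose with GC content (Spearman rho = 0.55, a description over genes), and over all tested genes rho was 0.36. For the number of C2H2 fingers rho was 0.00, for the mean level -0.05 and for the shared 50-base windows -0.11.

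**Figure D5:**
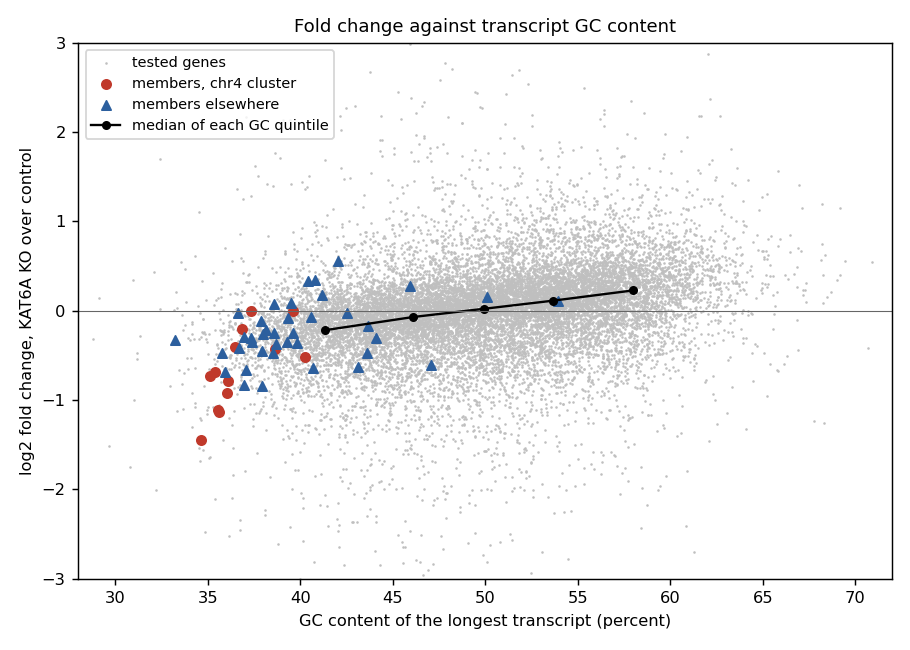
Log2 fold change (y axis, KAT6A KO over Control) against transcript GC content in percent (x axis) for tested genes, with the Zfp900 to Zfp999 genes marked. The axes run from -3 to 3 and from 28% to 72%, and the few genes beyond them are not shown. The members sit at the left, in the range where the background is also below 0, and the chromosome 4 genes reach furthest below it.

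When a GC-content offset was fitted for each library, the median log2 fold change of the members was -0.02, against 0.02 for all tested genes. The test then called 4 members lower (7.69%) and 1 higher, with 8.71% and 5.27% of all tested genes called. The 4 were Zfp979 (-1.03, edgeR adjusted p = 0.019), Zfp990 (-0.75, 0.0199), Zfp981 (-0.67, 0.0291) and Zfp985 (-0.53, 0.0185), all on chromosome 4. Zfp961 was at 0.76 (0.0060). Zfp980 (-0.37), Zfp948 (-0.38), Zfp945 (-0.29) and Zfp953 (-0.44) no longer passed. With the offset the median was -0.28 for the chromosome 4 members, -0.13 for the chromosome 17 cluster and 0.02 for all members outside chromosome 4, of which none was called lower. The 9 other genes within the chromosome 4 cluster had a median of -0.00. The offset takes out any difference that follows GC content, and the source of that relation was not tested.

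Below 0.5 CPM were 11 genes, of which 6 had no read in any library (Zfp935, Zfp966, Zfp968, Zfp969, Zfp973 and Zfp986) and none had more than 20 counts in all. In 10 of the 11 over 85% of the 50-base windows occur in other genes, with a median of 92.1%, against a median of 15.7% in the 52. A read from such a gene can be discarded as ambiguous, so a count of 0 does not show that the gene is silent. Just above the minimum were Zfp964, at 0.723 and 0.255 CPM in the libraries labelled KAT6A KO against 0.703 and 0.675 CPM in Control, and Zfp934, with a mean of 1.22 CPM. Just below it were Zfp987 and Zfp993, with means of 0.151 and 0.0988 CPM over the 4 libraries.

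Most genes that work with KRAB zinc finger proteins did not pass the test. Of 36 tested genes of the TRIM28 pathway 4 rose and 1 fell, where 5.76% and 8.57% of all tested genes did, with a median log2 fold change of -0.00. Among those that rose were Mta2, a subunit of the NuRD complex (0.39, edgeR adjusted p = 0.0351), and Daxx, a histone H3.3 chaperone (0.42, 0.0351). Atrx, the chromatin remodeller that works with Daxx, fell (-0.59, 0.0325). The rises of Mta2 and Daxx ended without either Control library, that of Daxx also with the GC-content offset (0.0517), and the fall of Atrx ended without Control replicate 2 (0.0552). Trim28 itself was at 2096 and 2545 CPM in the libraries labelled KAT6A KO against 1806 and 2014 CPM in Control and did not pass. Among 15 tested KRAB zinc finger genes with reported roles in ES cells or imprinting, Zfp568 rose (0.40, edgeR adjusted p = 0.0493), and Zfp459 (-0.55, 0.0258) and Zfp354c (-0.52, 0.0459) fell. Zfp459 and Zfp354c did not pass with the GC-content offset (adjusted p = 0.187 and 0.0749), and none of the 3 without either Control library (0.153 to 0.367). Among 16 zinc finger genes of pluripotency without a KRAB domain, 2 rose, Sall4 (0.50) and Sall1 (0.46), and 1 fell, Zfp207 (-0.38). Zfp207 was at -0.16 with the GC-content offset and did not pass (edgeR adjusted p = 0.165), and none of these 3 passed without either Control library (0.108 to 0.379). With lists this short, the counts are given beside the shares of 5.76% higher and 8.57% lower among all tested genes and are read no further.

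Some marker genes of cell states also differed between the groups, where 5.76% of all tested genes were higher and 8.57% lower. ES cell markers had 3 of 10 tested genes higher and none lower, with summed levels of 6368 and 6715 CPM in the libraries labelled KAT6A KO against 5097 and 5060 CPM in Control. Markers of the 2-cell-like state had 7 of 10 higher, at sums of 29.6 and 25.2 CPM in the libraries labelled KAT6A KO against 9.23 and 8.94 CPM in Control. Primitive endoderm markers had 6 of 10 lower, at 505 and 1140 CPM in the libraries labelled KAT6A KO against 2364 and 2254 CPM in Control. Trophoblast markers had 5 of 9 lower, at 100 and 155 CPM in the libraries labelled KAT6A KO against 267 and 270 CPM in Control. Col4a1 and Lama1 made up most of the primitive endoderm sums, and Krt8, Krt18 and Tfap2c most of the trophoblast sums. Krt8 (-1.74) and Krt18 (-1.62) were called lower, while Tfap2c (-0.04) and Eomes (-0.05) were not called. Neural markers had 2 of 6 higher and 1 lower, at sums of 116 and 102 CPM in the libraries labelled KAT6A KO against 81.6 and 91.1 CPM in Control, and both rises, of Sox1 and Tubb3, ended once GC content was offset (adjusted p = 0.0608 and 0.0559 in edgeR's test). Fibroblast markers had 0 of 6 called, at 35.4 and 29.4 CPM in the libraries labelled KAT6A KO against 27.5 and 27.6 CPM in Control, with Lum listed at 0. The part of these cell states in the levels of the zinc finger genes was not tested.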

How the data were processed

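Polyadenylated RNA was extracted with DNase digestion and sequenced after stranded TruSeq mRNA preparation, per the labels' protocols. The deposited count tables give whole-number reads per gene symbol, made with featureCounts per the submitters' processing notes, which also name DESeq2. Aligner, build, annotation and strand setting: not given in the sources used here. In a table without a header the authors deposited their own comparison, made with DESeq2 per the submitters' processing notes: a mean signal (normalized count), a log2 fold change with its error, a score (their quotient), and p-values, raw and adjusted, all identified from the values.

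Counts were tested in R 4.3.3 with edgeR 4.0.16 (filterByExpr by group, TMM factors of 0.992 to 1.01, robust quasi-likelihood test, Benjamini-Hochberg adjustment, group as the single term). CPM was computed on TMM-scaled library sizes, and errors of fold changes derive from the F statistic. Libraries held 27494041 to 37354623 counts. The members, lists and alternatives were chosen with earlier results of these data known. Positions, GC content, 50-base windows and coding patterns came from GENCODE M21 (GRCm38), where 97.3% of symbols were found, and 98.6% of tested genes had a GC content. All 63 members had a position and 53 had a RefSeq promoter. Members on 1 chromosome with gaps of at most 2 Mb formed a cluster. The GC-content offset was a lowess curve per library (span 0.3).

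Named were members that passed, the 8 most abundant, the 4 highest and 4 lowest fold changes, the 2 on either side of 0.5 CPM, up to 3 called genes per direction of each list, and Kat6a; 1 gene is not reported here, and other members appear as parts of their cluster. Alternatives were RLE, upper quartile or library-size scaling, no low-count filter or 1 CPM in 2 libraries, DESeq2 1.42.0, limma-voom 3.58.1, the likelihood ratio test, the replicate block, the GC-content offset, both together, other minimum levels, and each library left out, with the lone library assumed to vary like the other group. The restrictions to members with under 10% shared windows and to those outside the chromosome 4 cluster were added after seeing the data. The fit was tested on simulated data. It recovered 4 of 67 genes set to an absolute log2 fold change of 0.5, 48 of 65 at 1 and 57 of 65 at 2. Of its 118 calls 9 were of unchanged genes. Changes near 0.5 were thus mostly missed, and a member that did not pass is not shown to be unchanged.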

Additional observations from a re-analysis of the deposited data

How the results depend on the processing

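The 9 called members kept their direction under all 15 alternatives, and Zfp981 and Zfp985 kept their calls. With 1 library left out the direction could hardly change, because the groups of these 9 did not overlap. The count of 8 lower members was 4 with the GC-content offset and 5 with the offset and replicate block (background 9.95% lower, 6.74% higher). It was 3 among the 22 members sharing under 10% of windows, and 3 among the 39 outside chromosome 4 (7.69%). The share was 15.4% for all 52 members and 8.57% for all tested genes. The count of 1 higher was 2 with block and offset and 0 to 7 with 1 library left out. The median of -0.34 ranged from -0.63 to -0.16 with 1 library left out and was -0.02 with the offset.

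Replicate numbers are not stated to pair the libraries, and same-numbered deviations correlated at 0.0945. With the replicate block 11 members were lower and 1 higher (background 13.3% and 10%), and Zfp979 had an adjusted p of 0.171 in edgeR's test.

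Among other numbered Zfp genes 14 higher became 24 with the likelihood ratio test, 26 with the block and 2 to 69 with 1 library left out. Their 13 lower became 28 without a low-count filter, 20 with DESeq2, 35 with the likelihood ratio test, 37 with the block, 8 with the offset and 3 to 94 with 1 library left out. The 4 higher pathway genes became 7 with block and offset and 0 to 16 with 1 library left out. The 1 lower became 2 without a filter, with limma-voom, and with block and offset, 3 with DESeq2 and with the likelihood ratio test, 4 with the block, and 0 to 11 with 1 library left out.

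Signs changed in 11 of 659 values of named genes, none of them a called member. Zfp930 was at 0.094 with the offset, 0.082 with block and offset, and -0.63 to 0.091 with 1 library left out. Zfp934 was at 0.0089 with upper quartile scaling, 0.36 with the offset, 0.36 with block and offset, and -0.12 to 0.060 with 1 library left out. That range was -0.33 to 0.38 for Zfp936, -1.42 to 0.066 for Zfp964 and -0.74 to 0.75 for Kat6a. The cause was not tested. With 2 libraries per group, the spread rests on few values, and members near 1 CPM or with shared windows are the least certain.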
